A study of Oryza sativa with 2 samples.

Results

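The carotenoid and xanthophyll biosynthesis genes of rice were followed in leaf transcripts of the *yl-1* mutant and the wild-type. Their 10 members were taken by locus ID from the deposited expression table, which holds 42152 gene entries, and each member was found in 1 entry of its own. They were listed by function, with earlier results of these data known. They are the phytoene synthases *PSY1* (LOC_Os06g51290) and *PSY2* (LOC_Os12g43130), phytoene desaturase *PDS* (LOC_Os03g08570), zeta-carotene desaturase *ZDS* (LOC_Os07g10490), the carotene isomerase *CRTISO* (LOC_Os11g36440), lycopene beta-cyclase *LCYb* (LOC_Os02g09750), lycopene epsilon-cyclase *LCYe* (LOC_Os01g39960), beta-carotene hydroxylase *BCH* (LOC_Os03g03370), zeaxanthin epoxidase *ZEP* (LOC_Os04g37619) and violaxanthin de-epoxidase *VDE* (LOC_Os04g31040). By the chromosome number within these IDs the genes lie on 8 chromosomes. Both genotypes share the background of cv. Zhongjiazao 17, an *indica* rice. The wild-type is that cultivar, and *yl-1* arose in it by EMS mutagenesis. The mutant carries a single-base change in *YL-1*, which encodes a subunit of the cyclase that closes the extra ring of chlorophyll. One line was used, and no source used here says whether it was backcrossed before sequencing. Leaves of 4-week-old plants gave 1 library per genotype, and the labels describe growth in a chamber at 26 ºC with 12 h of light at 300 μmol m−2 s−1.

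Carotenoids are made in plastids from geranylgeranyl diphosphate, the same precursor that supplies the phytol tail of chlorophyll. Phytoene synthase joins a pair of these molecules to phytoene, and desaturases and isomerases then turn colourless phytoene into red lycopene. The pathway forks at lycopene. The beta-cyclase alone leads to beta-carotene, zeaxanthin and violaxanthin, whereas the epsilon-cyclase together with the beta-cyclase leads to lutein, the main xanthophyll of leaves. Zeaxanthin epoxidase and violaxanthin de-epoxidase run in opposite directions as the xanthophyll cycle, by which leaves adjust how much absorbed light they release as heat. Carotenoids also sit beside chlorophyll in the antenna complexes and protect them from excess light.

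The values are FPKM, fragment counts scaled to transcript length and to the size of the library, so that levels of different genes can be set side by side. They summed to 823855 in leaves labelled *yl-1* and to 738866 in leaves labelled wild-type. A factor of 0.897 on the *yl-1* values brings both libraries to the same sum. Without the 100 most abundant entries, that factor is 0.989. The number of reads behind the FPKM values is unknown, so no counting interval is given. Each genotype has a lone library and so no replicate error. No test was therefore possible, and every difference describes these libraries only. In leaf tissue, fewer cells of a type and less RNA per cell cannot be told apart. *PsbO*, *PSI-N* and *PsaL*, abundant photosystem transcripts of green tissue, stood at 2578 to 5206 FPKM in leaves labelled *yl-1* and 2212 to 3824 FPKM in leaves labelled wild-type, as the leaf label implies. *YL-1* itself (LOC_Os01g17170) was at 1124 FPKM in leaves labelled *yl-1* and 671 FPKM in leaves labelled wild-type. The labels could not be checked from the table itself. The genotype headings of a supplementary list of selected genes run the other way. Of its 24 wild-type entries, 23 match the deposited *yl-1* column to within 0.0051 FPKM. Of its *yl-1* entries, 18 match the deposited wild-type column and 6 match neither column. Under either heading, 0 match the column of their own name. Genotypes are named here as in the deposited columns. Every direction below rests on those names. If the columns were exchanged, every higher would become lower.

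Most of the 10 listed genes stood higher in leaves labelled *yl-1*, whereas further carotenoid loci, given below, were divided in direction. Of the 10 genes, 9 were higher and 1, *BCH*, was lower, and 8 were higher once both libraries were brought to the same FPKM sum, at which 35.9% of all entries compared were higher. The summed level of the 10 genes was 704 FPKM in leaves labelled *yl-1* and 504 FPKM in leaves labelled wild-type, a ratio of 1.40. Differences were moderate. On the scale of log2((FPKM + 1) ratio), *yl-1* over wild-type, the median of the 10 genes was 0.46, or 1.38-fold, with a range from -0.57 to 0.94. All 14559 entries with a mean of at least 1 FPKM had a median of 0.014 on the same scale. Of these entries 51.7% were higher in leaves labelled *yl-1*, against 9 of the 10 genes. On this scale, 7 of the 10 genes were at least 25% higher, against 19.4% of all entries. At least 20% lower, the same fold in the other direction, were 1 of the 10 genes and 19.6% of all entries. With both libraries at the same FPKM sum, 4 of the 10 genes were at least 25% higher, against 11.8% of all entries, and 28.7% of all entries were at least 20% lower. At least 1.5-fold higher were 3 of the 10 genes, *PDS*, *ZEP* and *ZDS*, and 7.71% of all entries. A difference of 2-fold in either direction was reached by 0 of the 10 genes and by 6.15% of all entries.

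**Figure D1:**
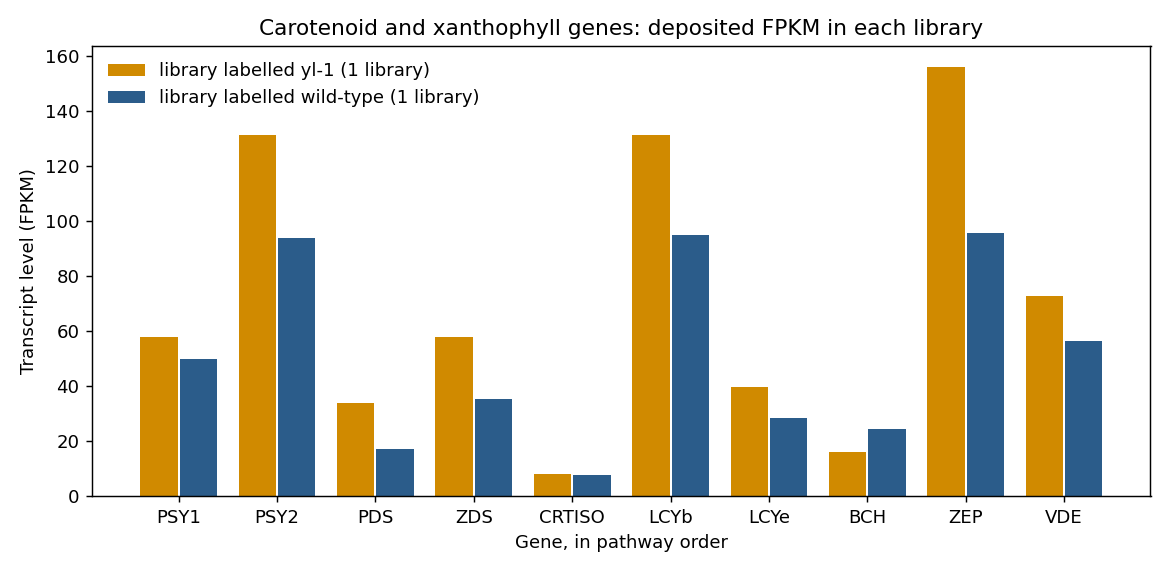
Deposited transcript levels (FPKM, bars from 0) of the 10 genes in pathway order, in leaves labelled *yl-1* (orange, left bar) and leaves labelled wild-type (blue, right bar), 1 library each and so without error bars. The orange bar is taller for every gene other than *BCH*, and *ZEP*, *PSY2* and *LCYb* are the tallest in both libraries.

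Phytoene synthase, which commits precursor to the pathway, was represented by a pair of genes of unequal level. *PSY2* was the more abundant, at 131 FPKM in leaves labelled *yl-1* and 93.6 FPKM in leaves labelled wild-type, a ratio of 1.40. *PSY1* was at 57.8 FPKM in leaves labelled *yl-1* and 50.0 FPKM in leaves labelled wild-type, a ratio of 1.16. Both paralogs were thus higher, *PSY2* by more, but the log2 ratio of *PSY1*, 0.20, came to 0.051 once both libraries had the same FPKM sum. Their ratio within a library, which no rescaling of a whole library can alter, was 0.44 *PSY1* per *PSY2* in leaves labelled *yl-1* and 0.53 in leaves labelled wild-type. No source used here says how fragments that match both paralogs were assigned.

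The desaturases held the largest difference among the 10 genes. *PDS*, which introduces the first double bonds into phytoene, was at 33.9 FPKM in leaves labelled *yl-1* and 17.2 FPKM in leaves labelled wild-type. That is a ratio of 1.98 without a pseudocount, and it placed *PDS* just under 2-fold. *ZDS*, the desaturase that follows, was at 57.7 FPKM in leaves labelled *yl-1* and 35.4 FPKM in leaves labelled wild-type, a ratio of 1.63. In contrast, *CRTISO*, which brings the double bonds into the form that the cyclases accept, hardly differed. It stood at 8.16 FPKM in leaves labelled *yl-1* and 7.68 FPKM in leaves labelled wild-type, the lowest level of the 10 genes in both. Its log2 ratio of 0.077 turned to -0.062 once both libraries were brought to the same FPKM sum. The desaturases that act beside it were therefore higher relative to the isomerase. Per *CRTISO* transcript there were 4.16 *PDS* transcripts in leaves labelled *yl-1* and 2.23 in leaves labelled wild-type, and 7.07 *ZDS* transcripts against 4.61.

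At the fork of the pathway the cyclases stood in nearly the same proportion in both libraries. *LCYb* was at 131 FPKM in leaves labelled *yl-1* and 94.7 FPKM in leaves labelled wild-type, a ratio of 1.38. *LCYe*, the enzyme that opens the lutein branch, was at 39.8 FPKM in leaves labelled *yl-1* and 28.6 FPKM in leaves labelled wild-type, a ratio of 1.39. For each *LCYb* transcript there were 0.304 *LCYe* transcripts in leaves labelled *yl-1* and 0.301 in leaves labelled wild-type, and the quotient of these was 1.01. With no replicate, the spread that such a ratio has between plants is unknown.

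The xanthophyll genes went different ways. *BCH*, which turns beta-carotene into zeaxanthin, was the only lower one of the 10 genes, with 16.1 FPKM in leaves labelled *yl-1* and 24.5 FPKM in leaves labelled wild-type. It was 1.52-fold higher in wild-type, and its log2 ratio was -0.57. *ZEP*, which epoxidizes zeaxanthin to violaxanthin, was the most abundant of the 10 genes in both libraries, at 156 FPKM in leaves labelled *yl-1* and 95.6 FPKM in leaves labelled wild-type (ratio 1.63). *VDE*, which carries out the reverse reaction in strong light, was at 72.8 FPKM in leaves labelled *yl-1* and 56.4 FPKM in leaves labelled wild-type (ratio 1.29). The epoxidase was thus higher relative to the de-epoxidase, with 2.14 *ZEP* transcripts per *VDE* transcript in leaves labelled *yl-1* and 1.69 in leaves labelled wild-type. Relative to *BCH* the difference was wider. There were 9.66 *ZEP* transcripts per *BCH* transcript in leaves labelled *yl-1* and 3.90 in leaves labelled wild-type, a quotient of 2.47. This ratio concerns the *BCH* locus alone, as other carotene hydroxylases were placed in a list of further loci below.

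**Figure D2:**
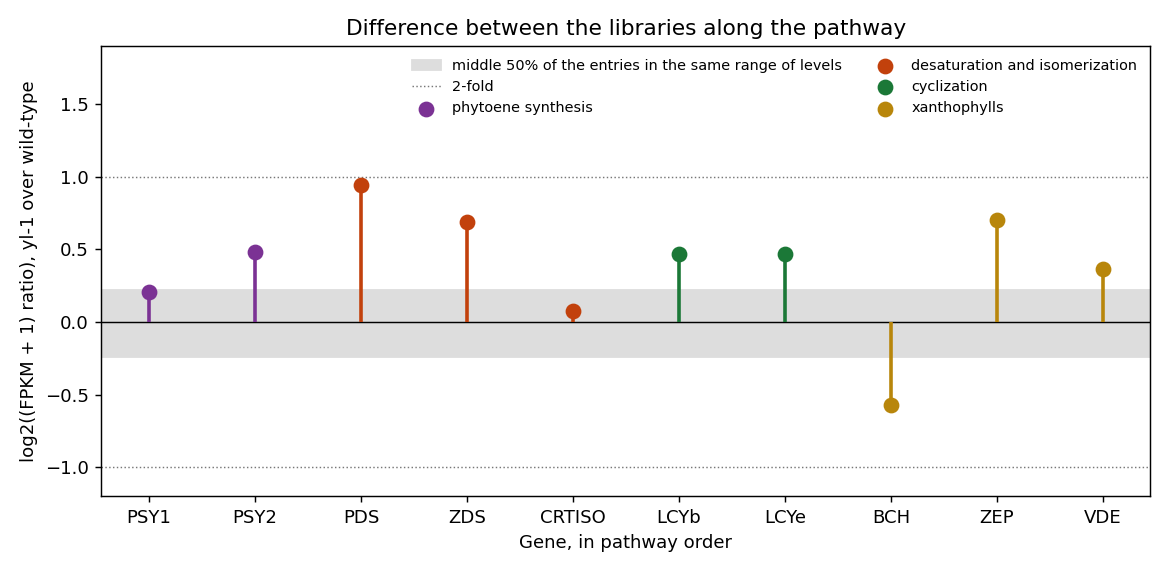
The difference between the libraries for each gene in pathway order, as log2((FPKM + 1) ratio) of *yl-1* over wild-type, coloured by step, with the middle 50% of 6193 entries of the same range of levels in grey (-0.24 to 0.22) and 2-fold as dotted lines. *PDS* reaches 0.94, *LCYb* and *LCYe* lie at the same height, *PSY1* and *CRTISO* lie inside the grey band, and *BCH* is the only gene below 0.

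Order among the genes was nearly the same in both libraries. *ZEP* came first and *CRTISO* last in each, with *VDE*, *PSY1*, *ZDS* and *LCYe* following each other in this order between them. *PSY2* and *LCYb*, which lay within a few FPKM of each other, exchanged places, and so did *PDS* and *BCH*. Without replicates it cannot be said which neighbours in this order differ beyond their spread. By step, phytoene synthesis made up 26.8% of the summed FPKM of the 10 genes in leaves labelled *yl-1* and 28.5% in leaves labelled wild-type. Desaturation and isomerization held 14.2% in leaves labelled *yl-1* and 12.0% in leaves labelled wild-type, and had the widest ratio of sums (1.66). Cyclization held 24.3% in leaves labelled *yl-1* and 24.5% in leaves labelled wild-type. Xanthophyll genes held 34.7% in leaves labelled *yl-1* and 35.0% in leaves labelled wild-type. Among them, *ZEP* held 22.1% against 19.0%, *BCH* 2.29% against 4.86% and *VDE* 10.3% against 11.2%. These shares leave out the list of further carotenoid loci below, in which other carotene hydroxylases were placed.

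The position of each gene among transcripts of similar abundance describes how unusual its difference was within these libraries. The 10 genes spanned mean levels of 7.92 to 126 FPKM, a range that held 6193 entries with a median log2 ratio of 0.00014. A ratio at least as high as that of *PDS* was seen in 1.86% of these entries. For *ZEP* the share was 4.04% and for *ZDS* 4.23%. *PSY2*, *LCYe* and *LCYb* were matched or exceeded by 9.07%, 9.90% and 9.98% of entries, *VDE* by 14.6% and *PSY1* by 26.3%. *CRTISO* lay near the middle, with 40.5% of entries at least as high. On the other side, a ratio as low as that of *BCH* or lower was seen in 9.38% of entries. Outside the middle 50% of these entries lay 7 of the 10 genes on the higher side and *BCH* on the lower side.

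**Figure D3:**
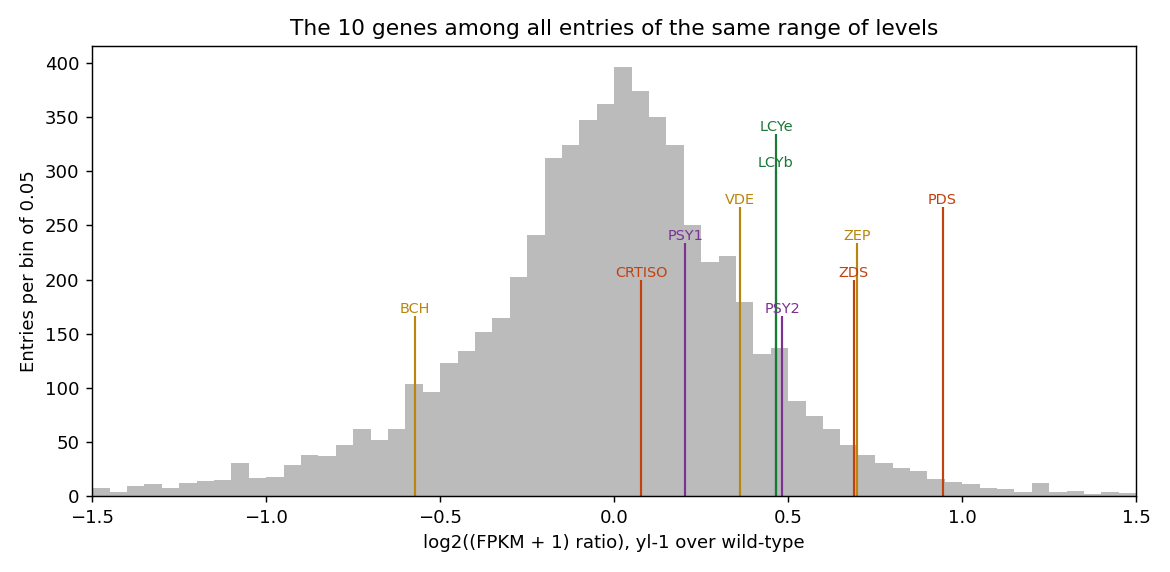
Number of entries per bin of log2((FPKM + 1) ratio), *yl-1* over wild-type, for the entries with mean levels from 7.92 to 126 FPKM (grey), with the 10 genes marked by vertical lines whose height has no meaning. A further 59 entries lie below and 41 above the plotted range, and *PDS*, *ZEP* and *ZDS* stand in the right tail whereas *BCH* stands in the left.

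Genes that surround the pathway were compared as lists of locus IDs. These IDs rest on general knowledge of rice loci and are not annotated in any source used here, so single IDs carry no role. Isoprenoid supply, a list for the methylerythritol phosphate pathway and geranylgeranyl diphosphate synthesis that feed carotenoids, ran close to the 10 genes. Of its 12 loci, 10 were higher in leaves labelled *yl-1*, against 51.7% of all entries. At least 25% higher were 7 loci, against 19.4% of all entries. The median log2 ratio was 0.44, and 0.29 once both libraries were brought to the same FPKM sum. LOC_Os02g39160 was furthest up, at 487 FPKM in leaves labelled *yl-1* and 293 FPKM in leaves labelled wild-type. Lowest in ratio was LOC_Os05g33840, at 35.9 FPKM in leaves labelled *yl-1* and 50.3 FPKM in leaves labelled wild-type.

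Further carotenoid loci were divided in direction, much as all entries were. The list was drawn up to hold a further phytoene synthase, the zeta-carotene isomerase, other carotene hydroxylases, neoxanthin synthesis, the plastid terminal oxidase and the Orange protein. Of 10 loci, 5 were higher and 5 lower, and of all entries 51.7% were higher. At least 25% higher were 2 loci, against 19.4% of all entries. At least 20% lower were 2 loci, against 19.6% of all entries. The median log2 ratio was -0.0036. The most abundant locus of the list, LOC_Os04g48880, was at 206 FPKM in leaves labelled *yl-1* and 247 FPKM in leaves labelled wild-type, far above *BCH*. LOC_Os02g57290 was at 18.6 FPKM in leaves labelled *yl-1* and 11.3 FPKM in leaves labelled wild-type. LOC_Os01g03750 was at 8.27 FPKM in leaves labelled *yl-1* and 22.6 FPKM in leaves labelled wild-type, 2.73-fold higher in wild-type and wider apart than any of the 10 genes. Whether the lists differ from each other was not tested.

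Those carotenoid cleavage loci that could be compared went both ways. The list was drawn up for the dioxygenases and the isomerase that turn carotenoids into abscisic acid, strigolactones and volatile products. Of 9 IDs, 8 were matched in the table, 2 of these were listed at 0 in both libraries, and 6 were compared. Not every enzyme that the list was meant to hold is therefore covered. LOC_Os02g47510 was at 1899 FPKM in leaves labelled *yl-1* and 1028 FPKM in leaves labelled wild-type, and LOC_Os12g44310 was at 473 FPKM against 282 FPKM. These were the 2 compared loci above 10 FPKM. LOC_Os07g05940 was at 0.924 FPKM in leaves labelled *yl-1* and 4.45 FPKM in leaves labelled wild-type, and LOC_Os03g44380 was at 2.64 FPKM against 5.05 FPKM. The lowest of the compared loci in mean level, LOC_Os04g46470, was at 1.43 FPKM against 1.38 FPKM. In all, 3 of the 6 were higher and 3 lower, close to the 51.7% of all entries that were higher, with a median of -0.010. Of 6 loci often used as controls, 3 were higher and 3 lower, with log2 ratios from -0.069 to 0.099. Among them 0 were 25% higher or 20% lower, against 19.4% and 19.6% of all entries. The lowest control in level, LOC_Os03g55270, was at 1.86 FPKM in leaves labelled *yl-1* and 1.70 FPKM in leaves labelled wild-type. At such a level the pseudocount draws its log2 ratio (0.081) towards 0, and its plain ratio was 1.09.

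**Figure D4:**
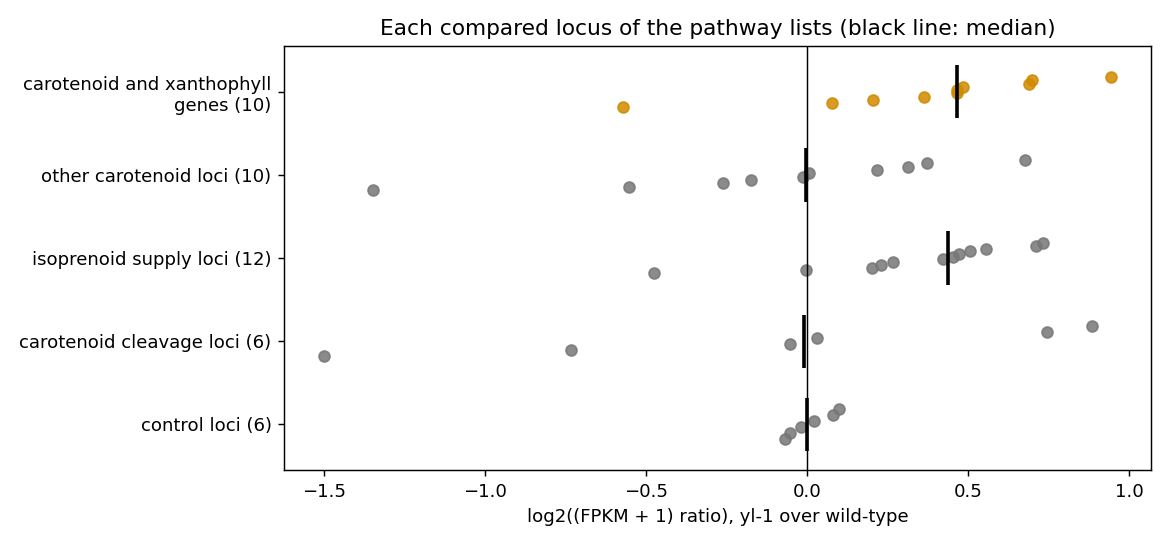
Log2((FPKM + 1) ratio), *yl-1* over wild-type, of each compared locus (points) in the 10 carotenoid and xanthophyll genes (orange) and 4 lists of other loci (grey), with the median of each list as a black line. The medians of the 10 genes (0.46) and of isoprenoid supply (0.44) lie to the right of 0, while further carotenoid, cleavage and control loci have medians near 0 and the first 2 of these spread to both sides.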

How the data were processed

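Poly(A) RNA from leaves was sequenced as 1 library per genotype. The authors deposited FPKM values, and the submitters' processing notes list TopHat, Cufflinks and Cuffdiff. Their versions, the annotation, the genome build, filters and read numbers are not stated in the sources used here. Genotypes were taken from the column names, and 0 columns of values were left unused.

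Entries were matched to members by locus ID. Log2((FPKM + 1) ratio), with a pseudocount of 1, was computed for entries with a mean of at least 1 FPKM. Plain ratios carry no pseudocount. Counts used differences of 25% higher or 20% lower and of 2-fold. All 10 members are named, and other lists by a few loci at most. The members and lists were chosen with earlier results of these data known. No ID of the table was found in the RefSeq table of assembly ASM3414082v1. The arithmetic was checked on a copy of the wild-type values with planted differences and no noise, which says nothing of the spread between libraries. Other pseudocounts, filters, scalings and folds were tried. Comparing with entries in the members' range of levels was added after the data were seen. Python 3.11.15, numpy 2.4.6, pandas 2.3.3 and matplotlib 3.10.9 were used.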

Additional observations from a re-analysis of the deposited data

How the results depend on the processing

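No paired analysis was possible because each genotype has 1 library. Values were taken as moved from a shift of 0.1 on the log2 scale, and counts from 1.5-fold. Rescaling to the same FPKM sum moved the median of all entries from 0.014 to -0.12, the median of the 10 genes to 0.31, the genes at least 25% higher to 4, the ratio of summed levels to 1.254 and *CRTISO* to -0.062, and left 8 of 10 genes higher, against 35.9% of all entries. The same rescaling took the medians of isoprenoid supply to 0.29, of further carotenoid loci to -0.15 and of cleavage loci to -0.12. The other scalings, filters and pseudocounts moved none of the 10 genes by 0.1. A threshold of 1.5-fold left 3 genes, against 7.71% of all entries. The cleavage median turned to 0.75 among entries with a mean of at least 5 FPKM (3 loci fewer) and to 0.0028 with the same upper quartile, which took further carotenoid loci to 0.012. Across the 9 settings in which each was recomputed, the 10 genes had 8 or 9 higher and 0 at 2-fold. Library depth is unknown, so counting error could not be given for any gene.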
